A study of Mus musculus with 60 samples.

Results

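The striatum of Adgrl3 knockout mice (KO, labelled Adgrl3 -/-) was compared with that of wild-type mice (WT, labelled Adgrl3 +/+) by RNA sequencing. The comparison holds 20 of the 60 libraries of the study, 10 of each genotype, and the other 40 come from hippocampus and prefrontal cortex. The mice were killed at postnatal days 65 to 76, and the regions were dissected from frozen brains. The labels speak of 12 mice per genotype and do not tie a library to a mouse, so p-values measure the spread between libraries. The labels name no sex, strain, litter or batch, nor the part of Adgrl3 that was altered. Of 21950 genes in the count table, 15553 had enough reads in striatum to be tested, 947 of them on chromosome 5, which carries Adgrl3, and 14606 elsewhere.

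The product of Adgrl3 is latrophilin-3, a synaptic receptor of the adhesion family that couples to G proteins and binds FLRT and teneurin proteins on the facing cell. The striatum is built mainly of inhibitory projection neurons. Those of the direct pathway carry the dopamine receptor Drd1 and those of the indirect pathway Drd2, and both receptors act on cyclic AMP, which in these neurons is made largely by the adenylyl cyclase Adcy5. Chromosome 5, which carries Adgrl3, is described apart from the rest of the genome.

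Total counts ran from 39784183 to 47935419 per library, and mitochondrial transcripts took 7.84% ± 0.50 of the counts in KO and 7.53% ± 0.41 in WT (SD, n = 10 each). Markers of striatal projection neurons set these libraries apart from the other regions. Ppp1r1b, which encodes the phosphatase inhibitor DARPP-32, had medians of 1210 CPM in WT striatum, 52.6 CPM in WT hippocampus and 48 CPM in WT prefrontal cortex. Markers of neighbouring tissue were present, most cortical and hippocampal ones at lower levels than in their own region. Neurod6, a transcription factor gene of cortical excitatory neurons, had a median of 28.4 CPM in WT striatum and 98.2 CPM in WT prefrontal cortex. Wfs1, taken as a hippocampal marker, went the other way, with medians of 165 CPM in WT striatum and 107 CPM in WT hippocampus. The choroid plexus gene Ttr varied widely, from 16 to 1190 CPM in WT striatum and from 8.97 to 1030 CPM in KO striatum. Levels are read counts per TMM-scaled library size (CPM), and in bulk tissue fewer cells of a type cannot be told apart from less RNA per cell.

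One WT library stood apart on chromosome 5. For each of 21 chromosome 5 genes with an unadjusted p under 0.001, Adgrl3 left out, a library was placed between the WT median and the KO median on the log2 scale. WT replicate 5 was nearer the KO median at 14 of these 21 genes, whereas the other WT libraries were so at 0 to 3. Its Adgrl3 was at the WT level, at 0.0431 of the way to the KO median. The libraries labelled WT replicate 5 in hippocampus and prefrontal cortex were each nearer their region's KO median at 15 of the 21 genes, against 1 to 3 and 0 to 6 for the other WT libraries of those regions. For Stbd1 they lay at 1.10 and 1.06 of the way, and for Shroom3 at 0.306 and 1.28. KO replicates 5, 7 and 8 were nearer the WT median at 6 of the 21 genes each, Idua and Coq5 among them in all 3. The genes were chosen on this contrast, so these places are a description. The edgeR results of Idua and of the genes that passed, Adgrl3 apart, are given with and without WT replicate 5. Shares of genes with a small p, intervals of the chromosome, the count of genes without overlap and region differences include it. That library was singled out on these same genes. Where it lies on the KO side, leaving it out had to widen the difference, so the values without it are no separate support.

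**Figure D1:**
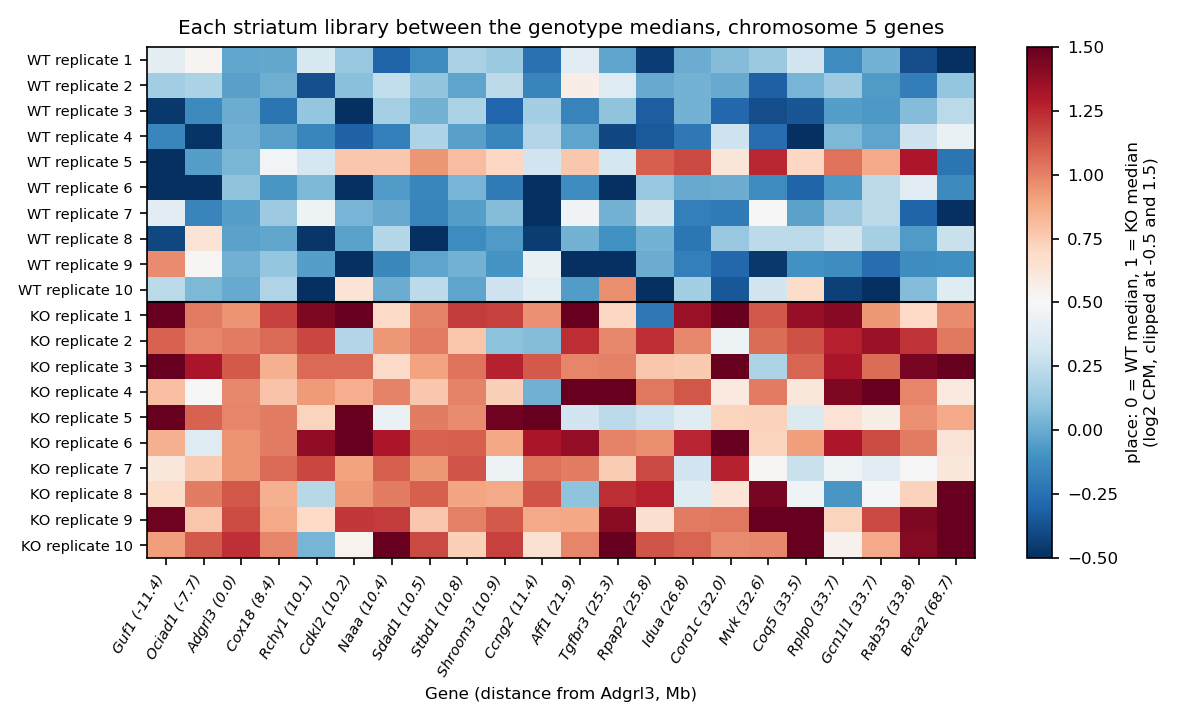
Place of each striatum library (rows) between the WT median (0, blue) and the KO median (1, red) on the log2 CPM scale for 22 chromosome 5 genes (columns, ordered by distance from Adgrl3 in Mb). WT replicate 5 is red or pale at most genes from Cdkl2 to Rab35 and blue at Adgrl3, and KO replicates 5, 7 and 8 hold pale or blue cells around Idua, Coq5 and Rplp0.

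Adgrl3 (ENSMUSG00000037605.16) occupies chromosome 5 from 81020138 to 81825133 on the plus strand of GRCm38. It ranged from 143 to 174 CPM in WT, with a median of 162, and from 32.3 to 46.7 CPM in KO, with a median of 43.8. The genotypes did not overlap. Adgrl3 fell by 1.96 ± 0.06 (SE) on the log2 scale (edgeR quasi-likelihood test, Benjamini-Hochberg adjusted p = 9.60e-16). KO libraries kept 25.7% of the mean WT count. Reads were counted over the whole gene, introns included, so this share does not say which part of the gene they came from.

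Over all tested genes 8 passed at an adjusted p under 0.05, which is 0.0514%, with 3 higher (0.0193%) and 5 lower (0.0321%) in KO. All 8 lie on chromosome 5, where 0.845% of tested genes passed, or 0.740% (7 of 946) without Adgrl3. Off chromosome 5, 0 of 14606 genes passed in edgeR's test, with 977 at an unadjusted p under 0.05. DESeq2 called 28 of 17778 genes (0.157%), of which 22 on chromosome 5 (2.01%) and 6 off it (0.0360%). A fit with surrogate variables called 24 (0.154%), 16 on the chromosome (1.69%) and 8 off it (0.0548%), and a single fit of all 60 libraries 22 (0.136%), 14 on it (1.42%) and 8 off it (0.0529%). With voom and quality weights 0 were called off the chromosome, and with the replicate number as a block 3 genes in all (0.0193%). At an unadjusted p under 0.05 stood 14.0% of chromosome 5 genes and 6.69% of the others, and no other chromosome exceeded 7.91% (chromosome 4). With WT replicate 5 included, KO and WT libraries did not overlap for 3 genes, Adgrl3, Cox18 and Brca2. This is 0.317% of chromosome 5 genes and 0.0193% of all. With that library set aside, Stbd1, Naaa, Sdad1, Gcn1l1, Idua and Coro1c did not overlap either, and this was not counted over all genes. The median absolute log2 difference was 0.0509 on the chromosome and 0.0465 off it.

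**Figure D2:**
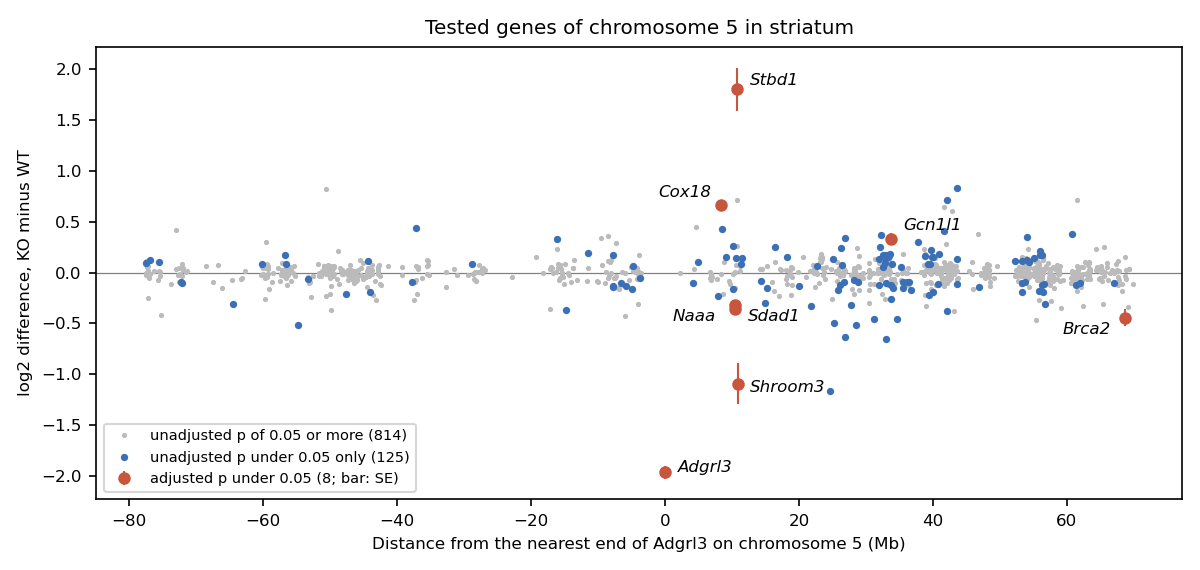
Log2 difference (KO minus WT) of the 947 tested genes of chromosome 5 against the distance from Adgrl3 in Mb. Red points with SE bars are the 8 genes that passed, blue points the 125 others at an unadjusted p under 0.05, grey points the remaining 814; the genes that passed lie at or on 1 side of Adgrl3, 5 of them between 8.39 and 10.9 Mb away.

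The share of genes with a small p varied between 10 Mb intervals of the chromosome. Of 41 tested genes between 90 and 100 Mb, 5 passed and 16 (39%) had an unadjusted p under 0.05. Between 110 and 120 Mb 31 of 108 genes (28.7%) had such a p and 1 passed, and between 100 and 110 Mb the share was 20.3% with 0 that passed. Between 30 and 40 Mb the share was 2.48% of 121 genes, and between 140 and 150 Mb it was 4.21% of 95.

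The 5 genes of the 90 to 100 Mb interval were Cox18, Naaa, Sdad1, Stbd1 and Shroom3, and all but Cox18 lie within 92257659 to 92965318. The genes there did not all move in the same direction. The 250 bases upstream of Stbd1, which rose, and of Naaa, which fell, are shown because these genes passed with opposite signs. Sdad1 lies between them and fell, as did Shroom3 on the other side of Stbd1. The Stbd1 window is chr5:92602801-92603050 (plus strand) and the Naaa window chr5:92278182-92278431 (minus strand), both from RefSeq on GRCm38.p6. Cox18 was not in the promoter table. Capitals mark the GC box GGGCGG on either strand.
Stbd1: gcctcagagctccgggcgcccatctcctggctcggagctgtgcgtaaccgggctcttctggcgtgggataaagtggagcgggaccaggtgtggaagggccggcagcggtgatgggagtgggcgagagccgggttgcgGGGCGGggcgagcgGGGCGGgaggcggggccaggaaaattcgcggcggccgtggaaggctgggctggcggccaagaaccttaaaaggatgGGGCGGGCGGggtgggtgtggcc
Naaa: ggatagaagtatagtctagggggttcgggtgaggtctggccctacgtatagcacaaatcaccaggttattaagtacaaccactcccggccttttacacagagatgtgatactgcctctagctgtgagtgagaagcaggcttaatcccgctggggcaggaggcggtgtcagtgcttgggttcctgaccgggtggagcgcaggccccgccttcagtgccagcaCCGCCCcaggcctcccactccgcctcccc
The Stbd1 window held 4 GC boxes, 24 CpG and 71.2% G or C, and the Naaa window 1 GC box, 10 CpG and 59.2%. A GC box occurs in 32.7% of 32851 such windows, whose median is 6 CpG and 52.4% G or C. Neither window held TATAAA (in 12.4% of windows), CCAAT (33.8%) or TGACGTCA (1.55%). These matches describe the sequence only.

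Stbd1, whose product binds glycogen and anchors it to membranes, ranged from 0.552 to 2.29 CPM in WT (median 0.684) and from 2.07 to 4.01 CPM in KO (median 3.02). The groups overlapped through WT replicate 5 at 2.29 CPM, and the next WT library stood at 0.904. Stbd1 rose by 1.80 ± 0.21 on the log2 scale (edgeR, adjusted p = 1.28e-04), and by 2.09 ± 0.13 without WT replicate 5 (adjusted p = 2.05e-09). Of 27 tested glycogen metabolism genes, 1 passed, Stbd1, and 3 had an unadjusted p under 0.05, all higher, against 3.71% of all genes on that side. The other 2 were Ugp2 (0.11 ± 0.04) and Gyg (0.08 ± 0.03).

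Cox18, an assembly factor that places a subunit of cytochrome oxidase in the mitochondrial inner membrane, ranged from 7.50 to 10.6 CPM in WT (median 8.42) and from 12.5 to 15.2 CPM in KO (median 13.9). The groups did not overlap, and the highest WT library was replicate 5. Cox18 rose by 0.66 ± 0.05 (edgeR, adjusted p = 8.29e-08), and by 0.70 ± 0.04 without WT replicate 5 (adjusted p = 2.05e-09). Of 27 tested cytochrome oxidase assembly genes it alone passed, and the list's median difference was 0.02. The 16 nuclear cytochrome oxidase subunit genes had 0 at an unadjusted p under 0.05 and a median of 0.07, with 15 of 16 higher, where 8002 of all 15553 genes were higher. KO replicates 10, 9 and 8 held the highest means of this list.

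Naaa, which encodes a lysosomal enzyme that breaks down N-acylethanolamines, ranged from 20.03 to 26.7 CPM in WT (median 24.6) and from 15.4 to 22.1 CPM in KO (median 19.0). Without WT replicate 5, at 20.03, the lowest WT library stood at 23.1 and no KO library reached it. Naaa fell by 0.36 ± 0.06 (edgeR, adjusted p = 0.00583), and by 0.38 ± 0.05 without that library (adjusted p = 8.44e-04). Of the 14 tested endocannabinoid and N-acylethanolamine genes Naaa was the 1 that passed. Its neighbour Sdad1, a gene of ribosome biogenesis on the same strand, ranged from 13.4 to 19.5 CPM in WT and from 12.8 to 14.1 CPM in KO. Sdad1 fell by 0.32 ± 0.05 (adjusted p = 0.00249), and the WT library at 13.4 was again replicate 5. Without it Sdad1 fell by 0.34 ± 0.04 (edgeR, adjusted p = 1.70e-05).

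Shroom3, an actin-binding protein that shapes epithelial cells, ranged from 2.15 to 5.43 CPM in WT (median 4.16) and from 1.05 to 3.82 CPM in KO (median 1.65). The groups overlapped through WT replicate 5 at 2.15 and KO replicate 2 at 3.82. Shroom3 fell by 1.09 ± 0.20 (edgeR, adjusted p = 0.0489), and by 1.161 ± 0.193 without WT replicate 5 (adjusted p = 0.00955). It passed in 3 of the 20 fits that left out 1 library, with adjusted p from 0.00136 to 0.132.

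Farther along the chromosome, Gcn1l1, whose product activates the translation-regulating kinase GCN2, ranged from 62.3 to 89.2 CPM in WT (median 71.7) and from 79.2 to 107 CPM in KO (median 92.4). It lies 33.7 Mb from Adgrl3, and WT replicate 5 was the WT library at 89.2. Gcn1l1 rose by 0.33 ± 0.06 (edgeR, adjusted p = 0.0233) and passed in 10 of 20 fits that left out 1 library, with adjusted p from 0.00138 to 0.0649. The lowest of these was without WT replicate 5, with a rise of 0.37 ± 0.05. Immediately before it on the same strand, the ribosomal stalk gene Rplp0 had a difference of the opposite sign, -0.26 ± 0.06 (edgeR, adjusted p = 0.299), from a WT median of 142 to a KO median of 113 CPM. DESeq2 called Rplp0 (adjusted p = 0.0428), as did the single fit of all 60 libraries (adjusted p = 0.0382), and the fit with surrogate variables did not. Of 16 tested genes of the GCN2 and integrated stress response, Gcn1l1 was the 1 (6.25%) with an unadjusted p under 0.05. Such a p was reached by 7.14% of all genes and 14.0% of chromosome 5 genes, and the list's median difference was -0.03.

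Brca2, a gene of DNA double-strand break repair, ranged from 4.93 to 6.24 CPM in WT (median 5.48) and from 3.02 to 4.72 CPM in KO (median 4.28). It lies 68.7 Mb from Adgrl3. The groups did not overlap, and WT replicate 5 lay among the other WT libraries. Brca2 fell by 0.44 ± 0.08 (edgeR, adjusted p = 0.0489), passing in 3 of 20 fits that left out 1 library (adjusted p from 0.0324 to 0.149), and its adjusted p was 0.0612 without WT replicate 5. Of 21 tested homologous recombination genes 1 passed and 5 had an unadjusted p under 0.05, all lower, against 3.43% of all genes. The other 4 lie off chromosome 5 and include Fancm (-0.22 ± 0.07) and Rad50 (-0.14 ± 0.05).

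**Figure D3:**
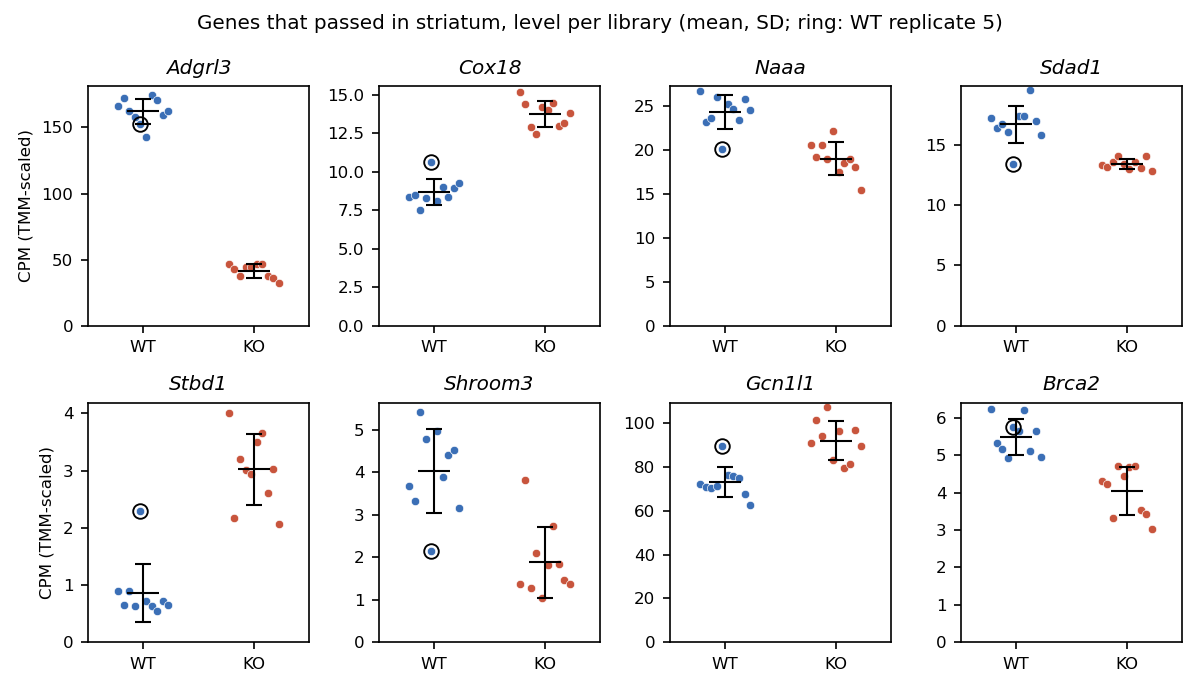
Level in CPM (y axis, from 0) of the 8 genes that passed, in each of 10 WT (blue) and 10 KO (red) striatum libraries, with the mean and SD in black. The ring marks WT replicate 5, which lies at the KO side for Naaa, Sdad1, Stbd1, Shroom3 and Gcn1l1 and among the WT libraries for Adgrl3 and Brca2.

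The 5 chromosome 5 genes next in order of p did not pass in edgeR's test of the 20 libraries. They were Ociad1, a gene of endosomes and mitochondria (0.17 ± 0.04), Idua, a lysosomal enzyme of glycosaminoglycan breakdown (-0.64 ± 0.13), the kinase gene Cdkl2 (0.26 ± 0.05), the actin regulator Coro1c (-0.13 ± 0.03) and Guf1, a mitochondrial translation factor (0.19 ± 0.04). Their edgeR adjusted p ran from 0.0833 to 0.0959. DESeq2 called all 5, with adjusted p from 6.56e-04 (Coro1c) to 0.00796 (Guf1). Surrogate variables called Cdkl2, Coro1c and Guf1, and the single fit of all 60 libraries Ociad1, Idua and Cdkl2. Idua ranged from 6.11 to 13.1 CPM in WT and from 5.47 to 9.78 CPM in KO, with WT replicate 5 at 6.11 and the next WT library at 10.5. Leaving that library out, Idua fell by 0.71 ± 0.10 (adjusted p = 0.00158). In that fit 15 genes passed (0.0963%), 14 on chromosome 5 (1.48%) and 1 elsewhere (0.00683%), and 7 of the 8 were among them. The additional ones were Idua, Cdkl2, Coro1c, Scarb2, Crlf2, Rab35 and Mvk on chromosome 5 and Flg elsewhere, named here after their values were seen.

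**Figure D4:**
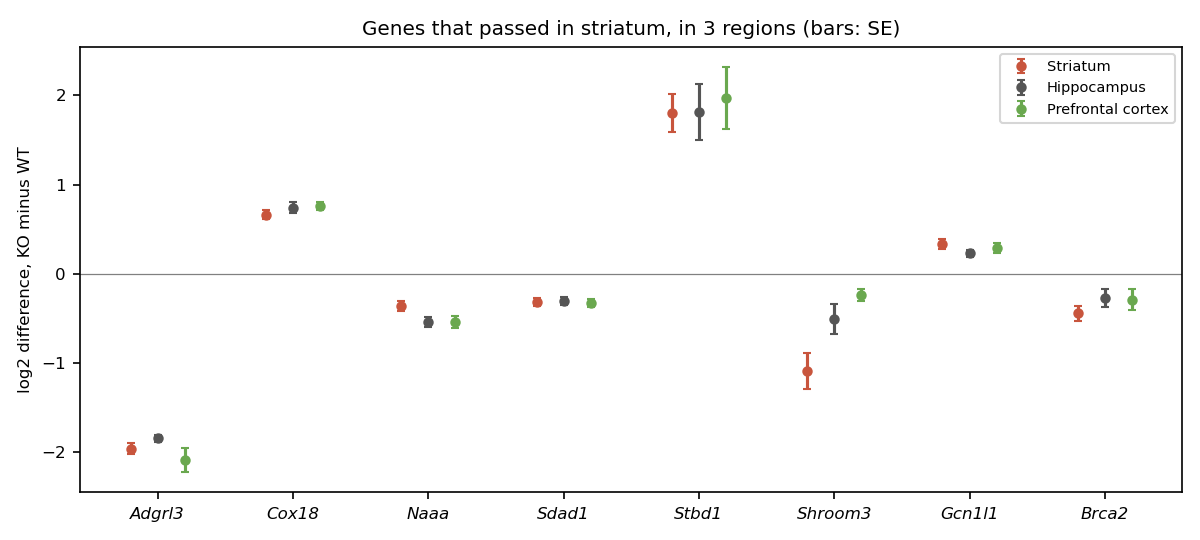
Log2 difference (KO minus WT, y axis) with its SE in striatum (red), hippocampus (grey) and prefrontal cortex (green) for the 8 genes that passed in striatum. The 3 regions have the same sign for each gene, and Shroom3 has the widest spread, from -1.09 in striatum to -0.24 in prefrontal cortex.

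Whether a difference was particular to striatum was tested over all 60 libraries, as the difference in striatum minus the mean of the differences in the other regions. With edgeR 0 of 16121 genes passed, with 639 (3.96%) at an unadjusted p under 0.05, and DESeq2 called 1 (0.00461%), Pmch. These fits and the single fit of all 60 libraries above took libraries as independent. Libraries of equal number and genotype deviated together, with a correlation over 0.1 for 8 of 10 pairs of striatum with hippocampus and 10 of 10 with prefrontal cortex in each genotype. With genotype and number together as a block in edgeR, or as a random effect with voom and duplicateCorrelation (correlation 0.199), 0 genes passed the region contrast. Shroom3 had -1.09 ± 0.20 in striatum, -0.51 ± 0.17 in hippocampus and -0.24 ± 0.07 in prefrontal cortex, and the contrast was -0.72 ± 0.20 (unadjusted p = 6.44e-04 by edgeR, adjusted p = 0.9998). Naaa had -0.36 ± 0.06, -0.54 ± 0.06 and -0.54 ± 0.07 in the same order, and Brca2 -0.44 ± 0.08, -0.27 ± 0.10 and -0.29 ± 0.12. No gene can therefore be called particular to striatum from edgeR's test.

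Off chromosome 5 the genes of smallest p were Stat6, a transcription factor of interleukin-4 signalling, and Nes, the intermediate filament of neural progenitors. Stat6 ranged from 11.8 to 14.9 CPM in WT and from 13.9 to 18.1 CPM in KO, and Nes from 9.45 to 12.8 and from 10.99 to 17.03 CPM, so both overlapped. Their differences were 0.25 ± 0.05 and 0.35 ± 0.07 (edgeR, adjusted p = 0.0884 for both). DESeq2 called both, with adjusted p = 0.00538 for Stat6 and 0.00532 for Nes, and the fit with surrogate variables called Stat6 (0.28 ± 0.05, adjusted p = 0.0158). In edgeR's fits that left out 1 library Stat6 passed without WT replicate 9 (adjusted p = 0.0496) and Nes without KO replicate 1 (adjusted p = 0.0415). The stress-inducible Gadd45a (0.41 ± 0.10), the retinol transporter gene Stra6 (-0.58 ± 0.15), the splicing kinase gene Srpk1 (0.19 ± 0.05), the Integrator gene Ints13 (0.17 ± 0.04), the chromatin remodelling gene Dpf2 (0.15 ± 0.04) and the F-box gene Fbxo48 (-0.53 ± 0.13) followed, with adjusted p from 0.262 to 0.347 in edgeR's test. Of these, DESeq2 called Gadd45a (adjusted p = 0.0305) and Stra6 (0.0462), and the 60-library fit Stra6 (0.0248) and Srpk1 (0.00370). Rdh16f1 (-0.73 ± 0.18) shares reads with the overlapping Rdh1 and Rdh9 and is uncertain; the 60-library fit called it (adjusted p = 0.0383). Surrogate variables also called Pdp1, a mitochondrial phosphatase gene (0.19 ± 0.03, adjusted p = 0.00595), Camk2n1, an inhibitor of the kinase CaMKII (0.13 ± 0.02, adjusted p = 0.0151), and Cirbp, a cold-inducible RNA-binding protein gene (-0.29 ± 0.05, adjusted p = 0.0241). In edgeR's test of the 20 libraries these had 0.29 ± 0.09, 0.09 ± 0.05 and -0.24 ± 0.10, with adjusted p from 0.545 to 0.701.

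Adcy5, on chromosome 16, ranged from 1254 to 1742 CPM in WT and from 1029.6 to 1913.5 CPM in KO. Its difference was -0.02 ± 0.08 (edgeR, adjusted p = 0.97), and it turned positive, at 0.03, without WT replicate 9. Of 20 striatal projection neuron markers 0 had an unadjusted p under 0.05 (7.14% of all genes), and the median difference was 0.01. Direct and indirect pathway markers had 1 of 9 and 0 of 9. The 1 was Isl1, a transcription factor of direct pathway neurons (0.25 ± 0.09). Among 39 cyclic AMP signalling genes 2 had an unadjusted p under 0.05, of which the phosphodiesterase gene Pde1c (-0.20 ± 0.06) was the lower, and 0 passed. Of 17 latrophilins and binding partners 0 passed, Adgrl3 being counted apart, and 2 had an unadjusted p under 0.05, Tenm4 (-0.17 ± 0.08) and Unc5d (-0.28 ± 0.13). KO replicates 8, 9 and 10 were lowest for that list, and without them 8 genes passed (0.0512%), 5 of which were among the 8 named above.

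Endoplasmic reticulum stress genes, which assist and monitor protein folding, had 8 of 24 members (33.3%) at an unadjusted p under 0.05, all higher in KO, against 3.71% of all genes on that side, and 0 passed. The chaperone gene Pdia4 ranged from 25.1 to 33.5 CPM in WT and from 28.6 to 52.2 CPM in KO (0.34 ± 0.10, edgeR adjusted p = 0.461), and the transcription factor gene Xbp1 from 55.2 to 69.0 and from 58.4 to 113 CPM (0.32 ± 0.10, adjusted p = 0.545). KO replicates 8, 10 and 4 held the highest means of the list. Without them 4 genes passed over all genes (0.0256%), Adgrl3, Cox18, Stbd1 and Sdad1, which are not members of the list. That count therefore says nothing about the list, and a lower count cannot be told apart from the smaller KO group. Erythrocyte markers had 4 of 5 members at an unadjusted p under 0.05, all lower, against 3.43% of all genes on that side, among them the globin gene Hbb-bs (-0.31 ± 0.12). The mean log2 CPM of this list ran from 4.98 to 6.05 in WT and from 4.67 to 5.57 in KO, and its part in other results was not tested. All 15 oligodendrocyte markers were higher, by a median of 0.15, with 0 at an unadjusted p under 0.05, where 8002 of all 15553 genes were higher. KO replicates 10, 8 and 9 held the highest means of this list.

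A total of 42 gene lists were examined. Of 29 lysosomal genes 1 passed, Naaa, and 6 had an unadjusted p under 0.05, 3 of them on chromosome 5 (Naaa, Idua and Scarb2), against 7.14% of all genes and 14.0% of chromosome 5 genes. Of 21 cytosolic heat shock chaperones 4 (19%) had such a p and 0 passed, among them Hspb8, a small heat shock protein gene of chromosome 5 (-0.46 ± 0.15), and Chordc1, a co-chaperone gene of chromosome 9 (0.27 ± 0.08). KO replicates 10, 8 and 7 held the highest means of the chaperone list. Dopamine genes had 1 of 17, the vesicular monoamine transporter gene Slc18a2 (0.69 ± 0.19, edgeR adjusted p = 0.449), which ranged from 0.433 to 0.869 CPM in WT and from 0.501 to 1.76 CPM in KO. Opioid and tachykinin genes had 0 of 12, and GABA interneuron markers 0 of 15.

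Lists of synaptic genes held 0 to 2 members each at an unadjusted p under 0.05, a p reached by 7.14% of all genes. Glutamate receptors had 2 of 22 members at an unadjusted p under 0.05, the NMDA receptor gene Grin2a (-0.14 ± 0.06) and the metabotropic Grm4 (0.15 ± 0.06), and a median difference of -0.04. GABA-A receptor subunits, 4 of them on chromosome 5, had 0 of 14 with a median of -0.07. Of the 14, 12 were lower, where 7551 of all 15553 genes were lower. Presynaptic vesicle genes had 2 of 29 with a median of -0.05, and postsynaptic scaffold genes 1 of 17, Homer1 (0.28 ± 0.09), which is also among the 20 immediate early genes and the 1 of them with such a p. KO replicates 10, 9 and 8 were lowest for the glutamate receptor list as well. Among glial lists, astrocyte markers had 1 of 14, the deiodinase gene Dio2 (0.28 ± 0.07), precursors of oligodendrocytes 2 of 12, Gpr17 (0.23 ± 0.07) and, on chromosome 5, Pdgfra (-0.13 ± 0.04), and microglia markers 2 of 15. In these lists 0 members passed.

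Avp, Pmch, Oxt and Hcrt, peptide genes of hypothalamic neurons, were high in a few KO libraries. Avp, the vasopressin gene, ranged from 0.153 to 0.501 CPM in WT and from 0.0699 to 10.5 CPM in KO, with KO replicates 2, 10 and 9 at 10.5, 8.74 and 5.35. The difference was 3.20 ± 0.79 (edgeR, adjusted p = 0.347), and 0.64 ± 0.38 without these 3 libraries. They were picked after the data were seen and are the highest for Avp, so leaving them out had to shrink its difference. DESeq2 called Avp (3.21 ± 0.70, adjusted p = 0.00538), as did the 60-library fit (3.20 ± 0.62, adjusted p = 0.00370). Pmch, the melanin-concentrating hormone gene, had 91 counts over the WT libraries and 4152 over the KO libraries, with KO replicates 10 and 9 at 52.6 and 27.9 CPM. Oxt, the oxytocin gene, had 64 and 1102 counts, with KO replicate 2 at 19.0 CPM. Neither Pmch nor Oxt passed the filter on low counts in edgeR's fit of the 20 libraries. DESeq2 called Pmch (5.38 ± 1.06, adjusted p = 7.52e-04), and the 60-library fit called Pmch (5.37 ± 0.81, adjusted p = 5.44e-05) and Oxt (4.02 ± 0.83, adjusted p = 0.0119). Hcrt, the orexin gene, ranged from 0 to 0.147 CPM in WT and from 0 to 13.1 CPM in KO. The ranges lay closer together for 2 others. Pomc, the proopiomelanocortin gene, ranged from 0.714 to 1.13 CPM in WT and from 0.703 to 1.46 CPM in KO, and Trh, the thyrotropin-releasing hormone gene, ranged from 3.04 to 7.33 and from 2.85 to 10.7 CPM. Of the 15 tested hypothalamus and septum markers 13 were higher in KO, where 8002 of all 15553 genes were higher. The mean log2 CPM of the list ran from 1.40 to 1.79 in WT and from 1.34 to 2.48 in KO. Thalamus markers were highest in the same 3 libraries. Without KO replicates 2, 9 and 10, 6 genes passed (0.0384%), all on chromosome 5 and all among the 8, with Gcn1l1 and Brca2 lost.

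**Figure D5:**
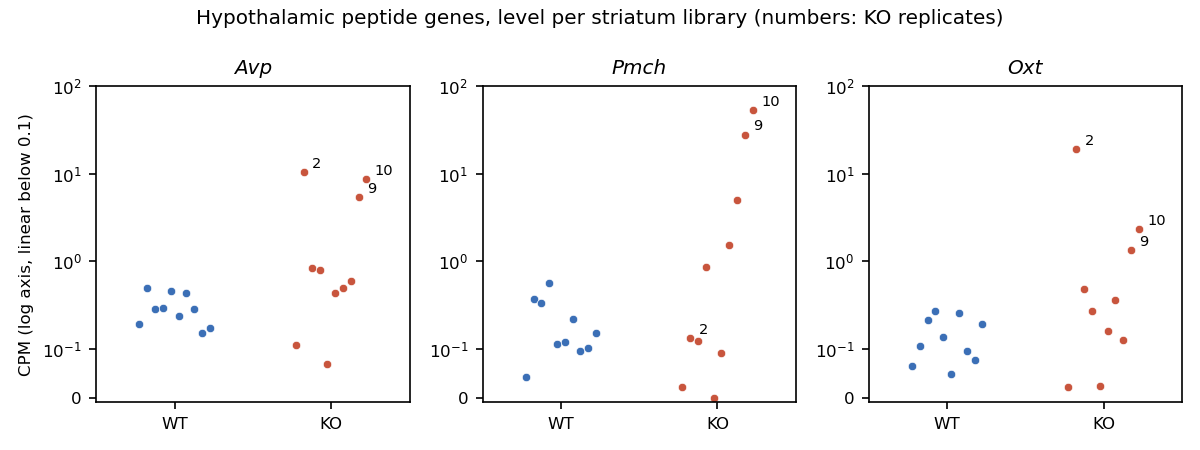
Level in CPM (log axis, linear below 0.1) of Avp, Pmch and Oxt in 10 WT (blue) and 10 KO (red) striatum libraries, with KO replicates 2, 9 and 10 numbered. Replicates 2, 9 and 10 are the 3 highest libraries for Avp and Oxt, replicates 10 and 9 are the highest for Pmch, and replicate 2 lies within the WT range for Pmch.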

How the data were processed

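The deposited table holds raw read counts per gene, made by the authors. The mouse build GRCm38, the aligner STAR 2.5.2b and bedtools appear in the submitters' notes on processing, with no role given. Among gene pairs with 1 inside the other, 0 of 496 on the same strand and 76 of 219 on opposite strands had fewer reads in the outer gene, so reads were counted by strand and once per overlapping gene. The 10 KO and 10 WT striatum libraries were compared with edgeR 4.0.16 in R 4.3.3. The settings were TMM, filterByExpr with a minimum count of 10, a robust quasi-likelihood F test and a Benjamini-Hochberg threshold of 0.05. In simulated data with 200 changed genes, 65.7% of 1.25-fold, 81.8% of 1.5-fold and 98.4% of 2-fold changes were recovered, so changes near 1.25-fold can be missed. Of the genes called there, 6.4% were unchanged ones. The simulated counts were independent between genes and libraries, and 200 genes were changed where 8 passed in the real data. These shares therefore describe the simulation and are not the power of the real comparison. Alternatives used limma 3.58.1, DESeq2 1.42.0 and sva 3.50.0. Replicates within a genotype differed beyond sampling noise (chi-square per degree of freedom from 7.78 to 66.9). Named were the 4 marker genes of the comparison (Adgrl3, Cox18, Stbd1 and Adcy5), genes that passed, the next 5 on chromosome 5, the 10 of smallest p off it, the 10 of smallest p called off it by another fit, and up to 3 members per list. The genes and lists were chosen with earlier results of these data known. Of the 8 genes that passed, 7 had a RefSeq promoter window (Gcn1l1 under the name Gcn1).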

Additional observations from a re-analysis of the deposited data

Results flagged for a closer look

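Among 58 groups of 10 libraries tested with Dixon's ratio, 6 held a library apart from the rest. The nominal rate is about 1 in 20 for independent, normally distributed groups. These genes were chosen from these data and share libraries, so no comparison with that rate is drawn. WT replicate 5 stood apart for Stbd1 (2.29 CPM; nearest library 0.904), Gcn1l1 (89.2 CPM; nearest 76.1) and Idua (6.11 CPM; nearest 10.5). WT replicate 9 stood apart for Adcy5 (1742 CPM; nearest 1473). KO replicate 10 stood apart for Pmch (52.6 CPM; nearest 27.9) and KO replicate 2 for Oxt (19.0 CPM; nearest 2.33).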

How the results depend on the processing

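The count of 8 genes, 8 on chromosome 5 and 0 off it, became 28, 22 and 6 with DESeq2, 24, 16 and 8 with surrogate variables, and 22, 14 and 8 with all 60 libraries in a single fit, and the cause was not tested. With the replicate block it was 3, all on chromosome 5 (Adgrl3, Cox18 and Stbd1). The replicate numbers did not pair KO with WT, since the correlation of deviations was over 0.1 for 1 of 10 pairs. Leaving out 1 library gave 5 to 15 genes, 5 to 14 on chromosome 5 and 0 to 1 off it, with 15 reached without WT replicate 5 and 5 without KO replicate 3 or 9 or WT replicate 1, 2, 3, 4 or 10. Without KO replicates 4, 8 and 10, an alternative chosen after seeing the data as were the other sets of 3, it was 4, all on chromosome 5. Each set of 3 left a smaller KO group, from which a lower count cannot be told apart. RLE size factors or no filter gave 6 each, and voom, a 1 CPM filter and the hypothalamus list as a covariate 8 each. With the covariate 6 of the 8 main genes were kept, with Cdkl2 and Ccng2 called in place of Gcn1l1 and Brca2. Adgrl3, Cox18 and Stbd1 passed in every alternative run. Adcy5 turned positive at 0.0165 with surrogate variables, 0.0759 with the covariate, 0.0590, 0.0572 and 0.0548 without KO replicates 2, 9 and 10, 8, 9 and 10, or 4, 8 and 10, and ranged from -0.0806 to 0.0280 when 1 library was left out. Over 26 named genes, 723 of 829 alternative values kept direction and side of the threshold, 65 lost it, 34 gained it and 7 changed sign. Only genes that passed can lose the call, so the pooled count does not measure how stable the calls were. Gcn1l1 kept its call in 17 alternatives and lost it in 15, Shroom3 in 10 and 22, and Brca2 in 7 and 25. Naaa lost it in 2 and Sdad1 in 1. The count of genes that differed between striatum and the other regions was 0 in edgeR and 1 in DESeq2. Depth limits low genes such as Rdh16f1, with a mean of 25.3 reads per library.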
